A study of Mus musculus with 8 samples.

Results

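Mitosis and chromosome segregation genes, the genes whose products carry a cell from the entry into mitosis to its separation into daughter cells, were followed in mouse splenic T cells stimulated through the T cell receptor. The group is a list of 47 genes, and where several probe sets measure a gene, the one with the highest mean log2 signal over the arrays stands for it. A probe set naming the gene alone was found for 44 of the 47, and all 44 passed the filter on low values, out of 8457 genes tested in all. Ccnb1, Cdca8 and Espl1 were not analysed here. T cells were enriched from spleen cells of Gfi1-knockout and wild-type C57Bl/6 mice with a magnetic pan-T-cell kit, and RNA was measured on 8 Affymetrix MOE430A_2.0 arrays. Cells of each genotype were taken untreated (0 h) or after 4, 8 and 24 h of culture with antibodies against CD3, a part of the T cell receptor complex, and CD28, its costimulatory receptor, at 2 µg/ml. Each genotype had 1 array per time, and the labels carry 1 source number per genotype. How the Gfi1 allele was made and how many animals each number stands for are not stated in the labels. Differences between genotypes therefore have no replicate check and no p-value. No array held cells cultured without the antibodies, so the antibodies and the time in culture cannot be told apart.

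Mitosis is driven by the kinase CDK1 with its cyclins, and most of the genes described here are transcribed in the G2 and M phases of the cell cycle and are silent in resting cells. Their transcription is commonly tied to the DREAM, MuvB, B-MYB and FOXM1 complexes, which act at a promoter element called CHR, often together with the CCAAT box bound by NF-Y. Resting T cells that are stimulated through CD3 and CD28 leave quiescence, grow, copy their DNA and then divide, so replication genes are turned on ahead of mitotic ones. GFI1 is a zinc finger repressor of transcription that is needed in lymphocytes and in the formation of neutrophils.

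Over the whole series, 56.5% to 61.5% of probe sets per array lay above a floor of 141.88 (log2 7.15), to which lower values were raised. The median signal ran from 222 in the wild-type-labelled array at 24 h to 302 in the knockout-labelled array at 0 h. Gfi1 itself gave signals of 2316, 5979, 6459 and 9885 on the knockout-labelled arrays at 0, 4, 8 and 24 h and of 882, 6359, 5259 and 3966 on the wild-type-labelled ones. The probe set may lie outside the deletion, whose extent the labels do not state. It therefore does not check the labels, and arrays are named by their label throughout. Of 16 T cell markers, 14 were tested, among them Cd2, Cd5, Bcl11b and Trat1. In bulk RNA such as this, fewer cells of a type and less RNA per cell cannot be told apart.

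Promoter sequences are shown first, because the members moved together on the arrays and the element named above is short enough to be seen. RefSeq windows on GRCm38.p6, running from 250 bases before to 50 after the start of transcription, matched 38 of the 47 listed genes. Ccna2, Cdc25c, Foxm1, Pbk, Aurkb, Incenp, Tpx2, Kif20a and Smc4 had no entry. Windows of Cdk1 (chr10:69352863-69353162, minus strand), Ccnb2 (chr9:70421505-70421804, minus strand), Ube2c (chr2:164769679-164769978, plus strand), Top2a (chr11:99024140-99024439, minus strand) and Mad2l1 (chr6:66534971-66535270, plus strand) are printed 5′ to 3′ in the direction of transcription. Capitals mark the letters TTTGAA, a common form of the CHR, and CCAAT, each on either strand (TTCAAA and ATTGG).
Cdk1: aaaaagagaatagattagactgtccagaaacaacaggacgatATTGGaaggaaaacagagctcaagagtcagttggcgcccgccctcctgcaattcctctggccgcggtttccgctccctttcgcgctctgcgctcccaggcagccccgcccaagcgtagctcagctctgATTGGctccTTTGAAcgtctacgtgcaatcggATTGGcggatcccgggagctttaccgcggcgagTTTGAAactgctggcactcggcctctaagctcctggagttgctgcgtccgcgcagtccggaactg
Ccnb2: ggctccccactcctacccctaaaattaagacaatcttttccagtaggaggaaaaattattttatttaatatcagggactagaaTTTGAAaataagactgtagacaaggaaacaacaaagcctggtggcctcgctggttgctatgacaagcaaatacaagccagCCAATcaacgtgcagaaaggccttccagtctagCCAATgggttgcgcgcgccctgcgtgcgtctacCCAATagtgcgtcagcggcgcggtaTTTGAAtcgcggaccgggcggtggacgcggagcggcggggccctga
Ube2c: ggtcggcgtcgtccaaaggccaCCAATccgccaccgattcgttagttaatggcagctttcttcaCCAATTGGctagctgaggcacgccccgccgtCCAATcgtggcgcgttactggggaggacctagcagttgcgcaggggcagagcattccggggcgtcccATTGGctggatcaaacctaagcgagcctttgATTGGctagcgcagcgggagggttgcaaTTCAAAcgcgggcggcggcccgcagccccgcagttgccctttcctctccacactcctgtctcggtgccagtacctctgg
Top2a: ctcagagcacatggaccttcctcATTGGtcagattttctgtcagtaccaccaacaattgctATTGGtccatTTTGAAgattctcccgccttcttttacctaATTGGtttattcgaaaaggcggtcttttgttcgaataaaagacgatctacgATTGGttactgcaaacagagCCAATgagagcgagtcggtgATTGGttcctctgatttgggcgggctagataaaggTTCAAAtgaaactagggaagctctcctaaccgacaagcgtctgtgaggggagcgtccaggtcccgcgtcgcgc
Mad2l1: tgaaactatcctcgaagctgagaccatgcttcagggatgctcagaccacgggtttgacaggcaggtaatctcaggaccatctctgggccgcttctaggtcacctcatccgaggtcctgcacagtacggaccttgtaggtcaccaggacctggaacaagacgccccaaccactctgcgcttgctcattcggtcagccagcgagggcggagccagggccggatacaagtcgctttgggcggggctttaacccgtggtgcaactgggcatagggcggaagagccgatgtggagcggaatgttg
Counted with the first transcribed base as 1 and no base 0, the first base of a TTTGAA match lay at -71 and -15 in Cdk1, at -167 and 5 in Ccnb2, at -29 in Ube2c and at -179 and -23 in Top2a. The Ube2c and Top2a windows each hold 6 CCAAT matches, of which the pair at -186 and -183 in Ube2c overlap. The Mad2l1 window holds neither set of letters.

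TTTGAA was present in 31 of 40 member windows (77.5%), covering 29 of 38 genes, and in 17.9% of all 32851 RefSeq windows of this length. CCAAT was present in 80.0% of member windows and 37.4% of all windows, and at least 2 copies in 55.0% and 11.7%. Both sets of letters were found in 70.0% of member windows and in 6.95% of all windows. Of the 40 TTTGAA matches in member windows, 29 (72.5%) began within 50 bases of the start, compared with 25.3% of 6737 matches over all windows. Among 69 windows of other mitosis genes, TTTGAA was in 49.3% and CCAAT in 66.7%, and among 34 windows of DNA replication genes TTTGAA was in 14.7%. The E2F-type letters TTTGGCGC were in 14.7% of the replication windows, 2.50% of member windows and 0.514% of all windows, and TTTCCCGC was in 17.6%, 0% and 1.07%, both searched on either strand. The member genes with a window and without TTTGAA in it were Birc5, Bub1, Ccnb1, Cenpe, Mad2l1, Ncaph, Nek2, Nuf2 and Nusap1. The letters TTTAAA, also searched, were in 22.5% of member windows, among them those of Birc5, Ccnb1 and Cenpe, and in 13.2% of all windows. A match describes these letters in this window and is not a measured binding site.

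On the wild-type-labelled arrays, the mitotic genes were lower after 4 h with the antibodies than before, stayed low at 8 h and were higher again at 24 h. From 0 to 4 h, 31 of the 44 members were at least 2-fold lower, against 11.2% of all tested genes, and 0 were 2-fold higher (6.23%), with a median log2 difference of -1.21. Between 4 and 8 h, 2 members were at least 2-fold lower (2.80% of all genes) and 0 higher (2.06%), and the median was -0.26. From 8 to 24 h, 21 of 44 were at least 2-fold higher, against 5.07% of all genes, and 0 were 2-fold lower (6.69%), with a median of 0.98. The extremes of this last step were 2.25 for Bub1, a kinase of the spindle checkpoint, and -0.45 for Plk1, the polo-like kinase of mitosis.

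On the knockout-labelled arrays the course was different in shape. From 0 to 4 h no member was 2-fold higher (5.36% of all genes) or 2-fold lower (5.57%), and the median log2 difference was 0.03. From 4 to 8 h all 44 were below 0, with a median of -0.63, with 6 of them 2-fold lower or more (2.57% of all genes) and 0 higher (2.02%). From 8 to 24 h, 34 of 44 were at least 2-fold lower, against 7.31% of all genes, and 0 were 2-fold higher (6.17%), with a median of -1.53. These values ran from -2.66 for Ube2c, the E2 ubiquitin-conjugating enzyme of the anaphase-promoting complex, to 0.45 for Foxm1. Both other Foxm1 probe sets were lower at 24 h (-0.73 and -0.89). Of the 44 members, 43 had their highest signal of the 8 arrays on the knockout-labelled array at 0 or 4 h, and the exception was Smc4. The lowest signal was on the wild-type-labelled array at 4 or 8 h for 31 members and on the knockout-labelled array at 24 h for 11, with Foxm1 lowest on the wild-type-labelled array at 0 h and Ccnb2 on that at 24 h.

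**Figure D1:**
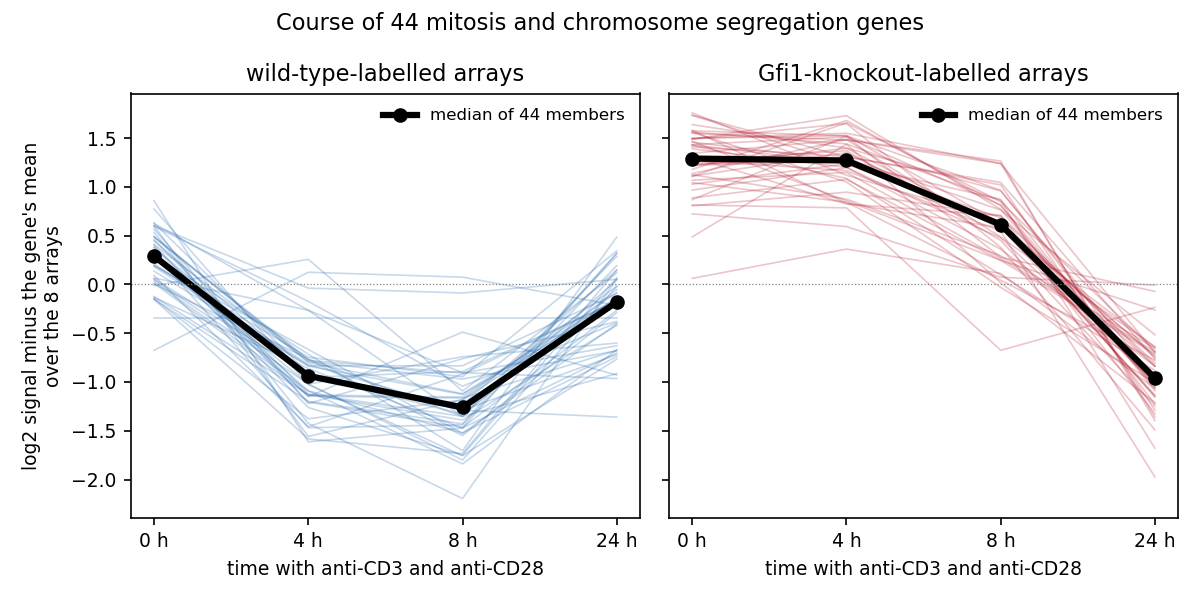
Log2 signal of each of the 44 members (thin lines), raised to the floor and centred on the gene's own mean over the 8 arrays, against time with the antibodies, for wild-type-labelled arrays (left) and knockout-labelled arrays (right). The black line is the median of the members; it dips at 4 and 8 h on the left, and on the right it is level to 4 h and lowest at 24 h.

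Set against each other at each time, the knockout-labelled arrays held more signal of the mitotic genes at 0, 4 and 8 h and less at 24 h. At 0 h, 24 of 44 members were at least 2-fold higher (8.08% of all genes) and 0 were 2-fold lower (6.75%), with a median log2 difference of 1.03. At 4 h, 41 were higher (11.8% of all genes) and 0 lower (6.56%), with a median of 2.25, and at 8 h 40 were higher (10.7%) and 0 lower (6.66%), with a median of 1.85. At 24 h, 0 were higher (9.18%) and 12 were lower (5.06%), with a median of -0.74, and 39 of the 44 lay below 0. The median over all tested genes was 0.00, 0.00, -0.08 and 0.00 at the 4 times. With each array divided by its median, that over all genes was -0.19 at 24 h. Then 24 members were 2-fold lower (10.4% of all genes) and 0 higher (6.74%). The members' median was then -1.03, which is -0.84 relative to all genes. At least 2-fold higher at 0, 4 and 8 h alike were 22 of 44 members (4.11% of all genes). Of these 22, 21 lay below 0 at 24 h (0.934% of all genes show this order) and 6 were at least 2-fold lower there (0.355%).

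**Figure D2:**
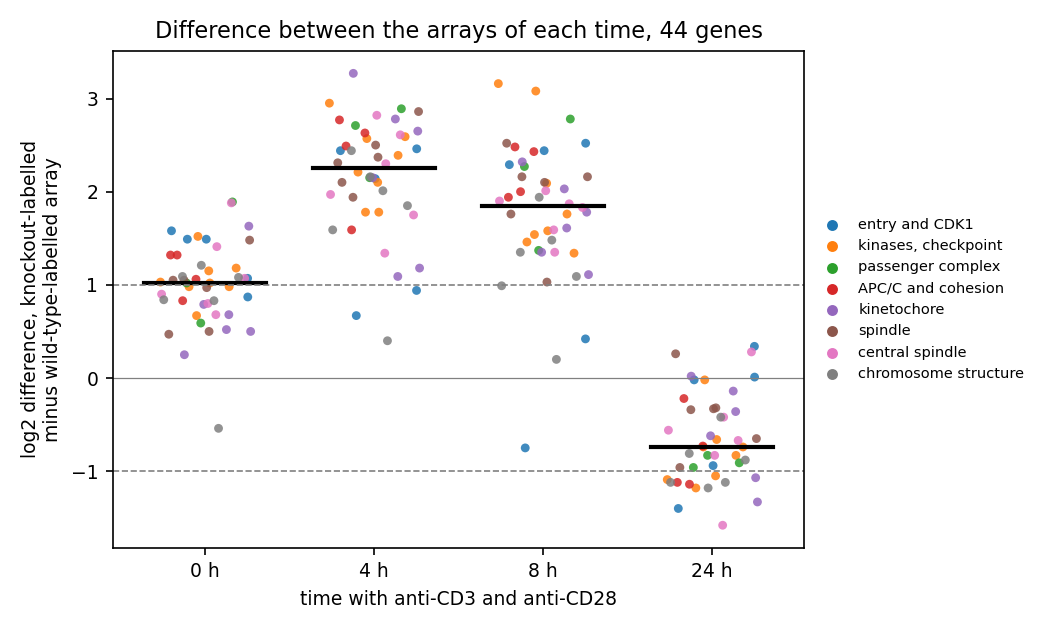
Log2 difference between the knockout-labelled and the wild-type-labelled array at each time, for each of the 44 members (points, coloured by role, spread sideways for legibility). Black bars are medians (1.03, 2.25, 1.85 and -0.74), the dashed lines mark 2-fold, and most points lie above the upper line at 4 and 8 h and below 0 at 24 h.

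Among the genes of mitotic entry, Cdk1 encodes the kinase that starts mitosis. Its signals were 4730, 4158, 3205 and 829 on the knockout-labelled arrays at 0, 4, 8 and 24 h and 1583, 766, 653 and 2189 on the wild-type-labelled arrays. The knockout-labelled values were higher at the first 3 times and lower at the last, and the log2 differences were 1.58, 2.44, 2.29 and -1.40. Ccna2, cyclin A2, which works with CDK1 and CDK2, gave 5682, 3646, 2623 and 860 against 2018, 824, 482 and 1653. Unlike Cdk1, it did not exceed its 0 h signal at 24 h on the wild-type-labelled arrays. Ccnb2, cyclin B2, stood at 438 and 436 on the knockout-labelled and wild-type-labelled arrays at 24 h, from 3171 and 1735 at 0 h, and the arrays were nearly equal at the last time. Cdc25c, a phosphatase that activates CDK1, was at or under the floor on all 4 wild-type-labelled arrays and between 180 and 298 on the others.

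Foxm1, the transcription factor of many G2 and M genes, was by its chosen probe set the member least like the rest. Its representative probe set gave 399, 391, 139 and 193 on the knockout-labelled arrays and 96.9, 246, 239 and 196 on the wild-type-labelled ones. At 8 h it is at the floor on the knockout-labelled array, and its log2 difference of -0.75 is a bound on how much lower it was. Both other tested Foxm1 probe sets were higher on the knockout-labelled array at 8 h (0.73 and 0.89), so the probe sets disagree on the direction at that time. They also disagree from 8 to 24 h on the knockout-labelled arrays. There the chosen one changed by at least 0.45 and the others by -0.73 and -0.89 or lower. The others lay at or under the floor on 4 and 5 arrays.

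The mitotic kinases and the spindle checkpoint, which holds anaphase until every chromosome is attached, comprised 8 tested members. All 8 were at least 2-fold higher on the knockout-labelled array at 4 and at 8 h, and at 24 h a 2-fold lower signal was seen for 3. Mad2l1, the checkpoint protein MAD2, gave 5462, 6348, 4118 and 1622 on the knockout-labelled arrays and 2459, 1483, 970 and 3359 on the wild-type-labelled arrays. Bub1 gave 2193, 2127, 1437 and 360 against 1070, 275, 161 and 766. The log2 difference of Bub1 at 8 h was 3.16 (0.20 in a weaker probe set that lay under the floor on 5 arrays), and both genes were higher on the wild-type-labelled array at 24 h (-1.05 for Mad2l1 and -1.09 for Bub1). Bub1b, the checkpoint kinase-like protein BUBR1, had log2 differences of 0.98, 2.39, 1.76 and -0.83, and Ttk, the checkpoint kinase MPS1, 1.02, 1.78, 1.58 and -0.66. Aurka, the centrosomal Aurora kinase, was level between the arrays at 24 h (472 and 480) after a log2 difference of 3.08 at 8 h. Plk1 gave 837, 291, 460 and 337 on the wild-type-labelled arrays and was not higher at 24 h than at 8 h there. Nek2, a centrosomal kinase, lay under the floor on 3 arrays, and Pbk, a mitotic kinase, had a log2 difference of -1.18 at 24 h.

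The chromosomal passenger complex corrects faulty attachments and acts in cytokinesis, and 3 of its genes were measured. Aurkb, its kinase, gave 1812, 1339, 1120 and 319 on the knockout-labelled arrays and 488, 181, 163 and 599 on the wild-type-labelled ones. Its log2 difference at 0 h was 1.89, and it was higher on the wild-type-labelled array at 24 h. Incenp, the scaffold of the complex, gave 6468, 7592, 4596 and 1658 against 4310, 1713, 1778 and 2943, and its log2 difference at 0 h was 0.59, with 0.30 and 1.29 in its other probe sets. Birc5, survivin, had log2 differences of 1.02, 2.71, 2.27 and -0.96. By their chosen probe sets none of the 3 passed 2-fold at 24 h, where they lay between -0.83 and -0.96. Another probe set of Aurkb (-1.42 or lower) and of Incenp (-1.02 or lower) did, each with the knockout-labelled array at the floor.

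The anaphase-promoting complex marks cyclins and securin for destruction, and its activators and substrates made up 4 members. Cdc20, its mitotic activator, gave 8128, 7611, 6225 and 1250 on the knockout-labelled arrays and 3260, 1115, 1620 and 2726 on the wild-type-labelled arrays. Ube2c gave 4867, 5384, 4598 and 728 against 2336, 868, 855 and 1205. Both were nearly level from 0 to 8 h on the knockout-labelled arrays and then lower at 24 h, with log2 differences from 8 to 24 h of -2.32 and -2.66. Cdca3, which triggers the destruction of WEE1, differed little between arrays at 24 h (-0.22). Cdca5, sororin, which guards sister chromatid cohesion, was next to Bub1 in its change from 8 to 24 h on the wild-type-labelled arrays (2.19 on the log2 scale, from 308 to 1411). The other Cdca5 probe set changed by 1.38.

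Kinetochore genes build the attachment site of spindle fibres on the centromere, and 6 were tested. Cenpa, the histone H3 variant of centromeres, gave 4008, 2881, 2641 and 650 on the knockout-labelled arrays and 2499, 1354, 864 and 833 on the wild-type-labelled ones. Nuf2, of the NDC80 complex, gave 1902, 1936, 1039 and 303 against 617, 307, 302 and 636. Cenpa was not higher at 24 h than at 8 h on the wild-type-labelled arrays, whereas Nuf2 was (-0.05 and 1.07 on the log2 scale). Only Nuf2 of the 6 was 2-fold higher on the knockout-labelled array at 0 h, and all 6 were at 4 and 8 h. Cenpe, a kinetochore motor, was at 59.0, under the floor, on the wild-type-labelled array at 4 h against 1371 on the knockout-labelled one, a log2 difference of at least 3.27. Ndc80 was lower on the knockout-labelled array at 24 h by a log2 difference of -1.33, and Spc25 by -0.14. A further Spc25 probe set had signals of 80.1 to 196 over the 8 arrays and a log2 difference of 0.43 at 24 h.

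Spindle motors and spindle assembly factors numbered 6. Kif22, a chromosome-arm kinesin, gave 4691, 4790, 3088 and 1186 on the knockout-labelled arrays and 2273, 1248, 692 and 1502 on the wild-type-labelled arrays. Tpx2, which activates Aurora A on the spindle, gave 1925, 2266, 1170 and 328 against 689, 312, 262 and 513. Both were higher on the knockout-labelled arrays up to 8 h, and at 24 h the chosen probe sets stood at -0.34 and -0.65. Kif11, the kinesin that pushes spindle poles apart, Kif2c, which depolymerises microtubules, and Nusap1, which bundles them, were at -0.32, -0.96 and -0.33 at 24 h, and Hmmr, a spindle-associated protein, at 0.26. None of the 6 was 2-fold lower on the knockout-labelled array at 24 h by its chosen probe set, whereas another probe set of Kif22 (-1.10) and of Kif11 (-1.03) was.

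Genes of the central spindle and of cytokinesis also numbered 6. Kif23, a motor of the centralspindlin complex, gave 1862, 1728, 1120 and 196 on the knockout-labelled arrays and 1164, 680, 372 and 584 on the wild-type-labelled arrays. Racgap1, its partner in that complex, gave 2289, 2009, 1118 and 486 against 1223, 513, 299 and 716. At 24 h the log2 difference was -1.58 for Kif23 and -0.56 for Racgap1, but their order depends on the probe set. The other tested Racgap1 probe set was at -1.68, and both arrays lay under the floor at 24 h in the other one of Kif23. Ect2, the activator of RhoA that centralspindlin recruits, was at -0.83, Kif20a, a kinesin of the central spindle, at -0.67 and Kif4, a chromokinesin, at -0.42 or lower. Prc1, which bundles antiparallel microtubules, was the one gene of this group above 0 (0.28).

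Chromosome structure was represented by topoisomerase IIα, condensin subunits and Ki-67. Top2a gave 7398, 8370, 4763 and 1449 on the knockout-labelled arrays and 3196, 1868, 1245 and 3281 on the wild-type-labelled ones. Smc4, a core subunit of condensin, gave 9357, 11518, 9664 and 4281 against 13619, 8722, 8421 and 9273. Smc4 therefore lacked the early excess: its log2 differences were -0.54, 0.40, 0.20 and -1.12, and its other probe sets lay at -0.31 to -0.08 at 0 h, -0.19 to -0.09 at 4 h, -0.67 to -0.53 at 8 h and -0.87 to -0.83 at 24 h. Its condensin partner Smc2 had 0.84, 1.59, 0.99 and -1.12. Ncapd2 and Ncaph, the other condensin subunits on the list, had 1.85 and 2.01 at 4 h. Mki67, the proliferation antigen Ki-67, gave 8141, 9091, 3761 and 1035 against 3837, 1670, 1474 and 1809.

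In the step from 8 to 24 h, most members were higher on the wild-type-labelled arrays and lower on the knockout-labelled ones. In 34 of 44 members the change on the knockout-labelled arrays was at least 4-fold lower than that on the wild-type-labelled ones, against 2.52% of all genes, and in 0 it was 4-fold higher (1.68%). The median log2 difference in response was -2.48. It ran from -4.25 for Bub1 to 0.74 for Foxm1, whose value rests on an array at the floor. The other Foxm1 probe sets did not share this direction. At least 2-fold higher on the wild-type-labelled arrays and at least 2-fold lower on the knockout-labelled ones were 15 members (0.544% of all genes): Ccna2, Cdk1, Aurka, Bub1, Bub1b, Mad2l1, Aurkb, Birc5, Ndc80, Nuf2, Kif22, Kif20a, Racgap1, Ect2 and Top2a. These 15 are by their chosen probe sets. On the wild-type-labelled arrays other probe sets of Ccna2 (0.93), Kif22 (0.75) and Bub1 (under the floor at both times) fell short of 2-fold. Those of Aurkb (at least 1.42) and Racgap1 (at least 1.77) and a further one of Kif22 (at least 1.44) passed it. The cyclins show how unevenly the members took part. Ccna2 went from 482 to 1653 on the wild-type-labelled arrays (616 to 1173 in its other probe set), whereas Ccnb2 went from 459 to 436. Both were lower at 24 h on the knockout-labelled arrays. These differences share the 8 h and 24 h arrays with the differences between labels above. From 0 to 4 h, 3 members had a response at least 4-fold higher on the knockout-labelled arrays (0.875% of all genes), and 0 at least 4-fold lower (0.260%), with a median of 1.06.

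**Figure D3:**
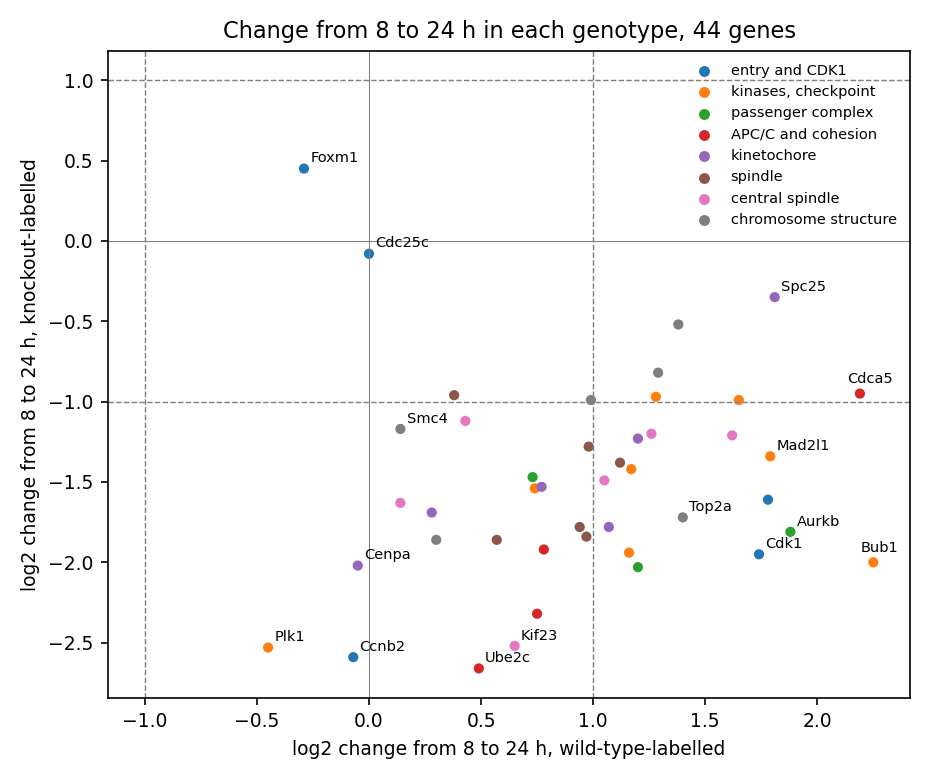
Log2 change from 8 to 24 h on the knockout-labelled arrays against that on the wild-type-labelled arrays for the 44 members, coloured by role. Dashed lines mark 2-fold; the 15 genes to the right of 1 and below -1 include Bub1, Aurkb, Cdk1, Mad2l1 and Top2a, while Plk1, Ccnb2 and Cenpa lie at or left of 0.

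At 24 h the labels also differed in how far the genes stood from their own level at 0 h. On the knockout-labelled arrays 42 of 44 members were at least 2-fold lower than at 0 h (14.2% of all genes) and 0 higher (9.10%), with a median of -2.33 on the log2 scale and a range from -3.25 for Kif23 to -0.73 for Cdc25c. On the wild-type-labelled arrays 8 were (13.9% of all genes), a share near that of all genes. The 8 were Ccnb2 (-1.99), Cenpa (-1.58), Cenpe (-1.57), Hmmr (-1.54), Plk1 (-1.31), Cenpf (-1.11), Mki67 (-1.08) and Cdca3 (-1.06), with Kif23 and Prc1 (-0.99) just short of the fold. For Hmmr this depends on the probe set. Its other probe sets went from 276 to 257, from 460 to 454 and from 341 to 154 between these wild-type-labelled arrays. With values raised to the floor, no member was 2-fold higher than at 0 h on the wild-type-labelled arrays (7.39% of all genes), and 11 lay above 0. Among these were Cdk1 (0.47), Mad2l1 (0.45), Aurkb (0.29), Cdca5 (0.19), Smc2 (0.15) and Foxm1, which was under the floor at 0 h and so at least 0.46 higher.

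**Figure D4:**
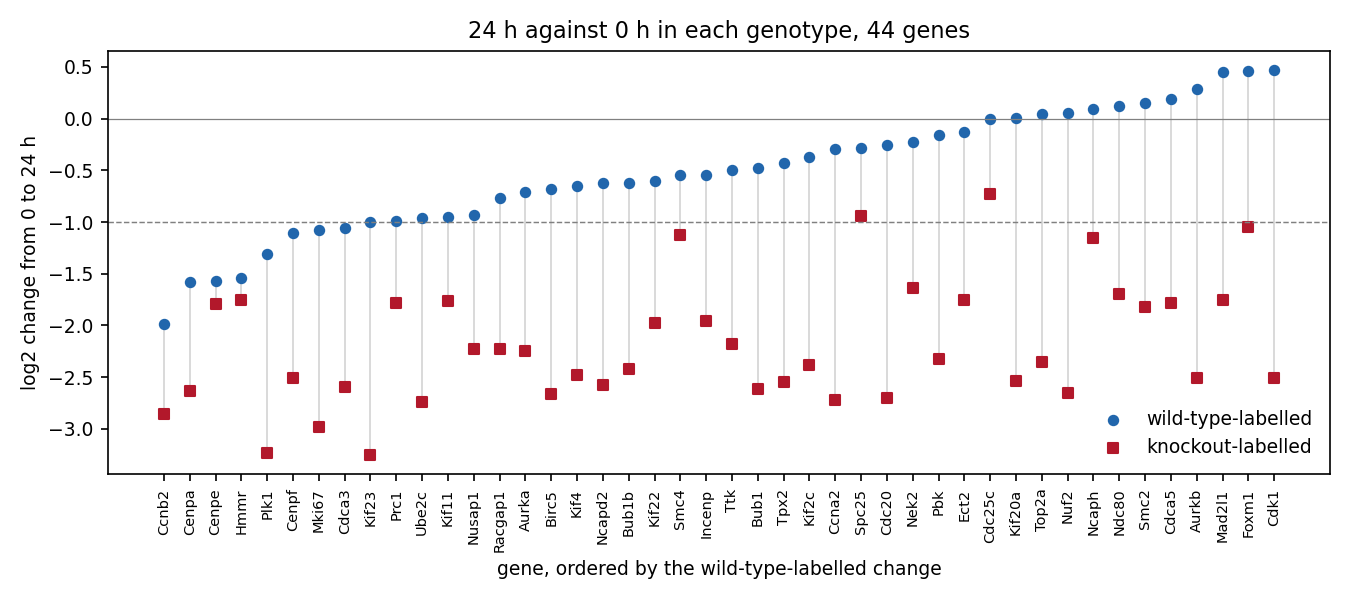
Log2 change from 0 to 24 h of each of the 44 members on the wild-type-labelled (circles) and knockout-labelled arrays (squares), ordered by the wild-type-labelled change. Values are raised to the floor first. The circles run from -1.99 for Ccnb2 to 0.47 for Cdk1 and the squares from -3.25 to -0.73; the dashed line marks 2-fold lower.

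A test of the change common to both labels was made in limma with time and genotype in the model. By an adjusted p under 0.05 and at least 2-fold, 0 of 44 members passed at 4 h (0.804% of all genes higher and 0.627% lower), at 8 h (1.18% and 1.25%) or at 24 h (1.49% and 2.48%) against 0 h, or between 8 and 24 h (0% and 0%). The median changes were -0.62, -1.07, -1.38 and -0.26 on the log2 scale. That at 24 h against 0 h was -0.17 without the knockout-labelled array at 24 h and -2.65 without the wild-type-labelled one. Unadjusted p-values under 0.05 were reached by 0, 5, 14 and 0 members, all of them lower, beside 14.4%, 20.2%, 21.8% and 9.05% of all genes in either direction. The lowest adjusted p of limma at 24 h against 0 h was 0.0572 for Cenpa (-2.10, SE 0.45, lower in both labels), followed by Ccnb2 at 0.0905 (-2.43, SE 0.63). The standard errors of the members' changes ran from 0.26 to 0.97, since the test sets the common change against the difference between the responses. With either array at 24 h left out, the other was the only one at that time and was assumed to vary like the rest. Counts of members called in such a fit are therefore not given. The p-values of limma measure no spread between animals or cultures.

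Other gene lists were read by counts and medians on the same arrays. Of 70 other mitosis genes 44 were tested, and 15, 28, 20 and 2 were at least 2-fold higher on the knockout-labelled array at 0, 4, 8 and 24 h, with 8 at least 2-fold lower at 24 h. The shares of all genes were 8.08%, 11.8%, 10.7% and 9.18% higher at these times and 5.06% lower at 24 h. Shcbp1, a central spindle protein, gave log2 differences of 1.65, 2.90, 2.86 and -0.92. Core subunits of the anaphase-promoting complex and cohesin, which are present through the cell cycle, had medians of -0.13, 0.05, -0.10 and -0.24 over 19 genes, beside 1.19, 2.56, 2.21 and -0.93 for the 4 members tied to the same complexes. The 33 tested genes of DNA replication stood at medians of 0.79, 1.18, 0.73 and -1.54. On the knockout-labelled array at 24 h, a 2-fold lower signal was seen for 26 of the 33, compared with 12 of 44 members and 5.06% of all genes. From 8 to 24 h, 28 of 33 replication genes were 2-fold higher or more on the wild-type-labelled arrays (median 1.84), and 4 were 2-fold lower or more on the knockout-labelled arrays (median -0.52). The shares of all genes were 5.07% and 7.31%. The medians of the mitotic list over the same step were 0.98 and -1.53, and the difference between the lists was not tested.

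Regulators of the mitotic program, counted among 17 tested genes of the MuvB, MYB, NF-Y and E2F families, had medians of 0.14, 0.41, 0.07 and -0.37. E2f8, an atypical E2F repressor, had log2 differences of 2.12, 2.31 and at least 2.14 at 0, 4 and 8 h and, with the knockout-labelled array at the floor, -1.44 or lower at 24 h. Mybl2, which encodes B-MYB, had 1.75 at 0 h and at least 1.32 at 4 h. Cyclins and kinases of G1 and S phase (9 tested) had medians of 0.41, 0.94, 0.79 and -0.71. Inhibitors of CDKs (7 tested) had medians of 0.78, 0.46, 0.45 and 1.07. On the knockout-labelled array at 24 h, 4 were at least 2-fold higher (9.18% of all genes) and 1 was lower (5.06%). Cdkn1a, which encodes p21, gave 292, 5824, 3664 and 14590 on the knockout-labelled arrays and 161, 1262, 2190 and 3113 on the wild-type-labelled ones, highest at 24 h in both.

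The members resembled one another over the 8 arrays. Pearson's r of each member with the mean of the other members had a median of 0.96, and 37 of 44 were at or above 0.9. Foxm1 was lowest at 0.37 by its chosen probe set, then Smc4 at 0.55, Ndc80 at 0.78 and Cdc25c at 0.80. All members share the arrays and their preparation. Among tested genes outside the list, Anln (r = 0.993), which encodes the cytokinesis protein anillin, and Ska1 (0.992), of the kinetochore, were closest to the mean of all members. Ethe1 (0.985), Hmgb2 (0.978), Idh2 (0.977), Golim4 (0.977), E2f8 (0.973), H2ax (0.969), Gpx1 (0.969) and Cip2a (0.969) followed. Anln gave 2187, 1899, 916 and 164 on the knockout-labelled arrays and 826, 213, 161 and 351 on the wild-type-labelled arrays. Of 19 members with more than 1 tested probe set, 18, 18, 17 and 17 at 0, 4, 8 and 24 h had none of opposite sign to the chosen one. In 0 members was a probe set 2-fold the other way. A probe set with both arrays at the floor shows no sign and was not counted as opposite. At 24 h this was so for other probe sets of Foxm1, Bub1, Cdc20, Tpx2, Nusap1 and Kif23.

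Markers of other cell types also differed between the labels, not always in the direction of the members. At 24 h the members' median log2 difference was -0.74. It was 1.35 for granulocyte precursor markers, 3.26 for monocyte and macrophage markers, 0.93 for progenitor markers and -0.29 for T cell markers. The summed signal of the 44 members was 130550, 132316, 86544 and 29095 on the knockout-labelled arrays and 72347, 34719, 29378 and 52729 on the wild-type-labelled arrays. The sum of 13 granulocyte precursor markers, led by the granule proteases Ctsg, Prtn3 and Elane, was 154919, 177056, 120499 and 6688 against 16918, 11528, 5175 and 1006, and 12 of the 13 were at the floor on the wild-type-labelled array at 24 h. It was thus high on the same 3 knockout-labelled arrays as the mitotic genes. At 24 h it was lower, but still higher than on the wild-type-labelled array. On the wild-type-labelled arrays it declined throughout, with no higher value at 24 h. The sum of 13 monocyte and macrophage markers was 48257, 64658, 83708 and 26036 against 11177, 5545, 4908 and 2022, and that of 8 progenitor markers 21146, 9413, 11691 and 6091 against 11170, 7840, 8164 and 2969. The sum of 14 T cell markers went the other way, with 33778, 31215, 26711 and 64245 against 100552, 93853, 71286 and 71513. B cell markers (7 tested) had medians between the labels of -0.52, -0.96, -0.65 and 0.00, and erythroid markers (6 tested) 0.43, -0.67, -0.45 and -0.28. The part of other cells in the difference between labels was not tested.

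**Figure D5:**
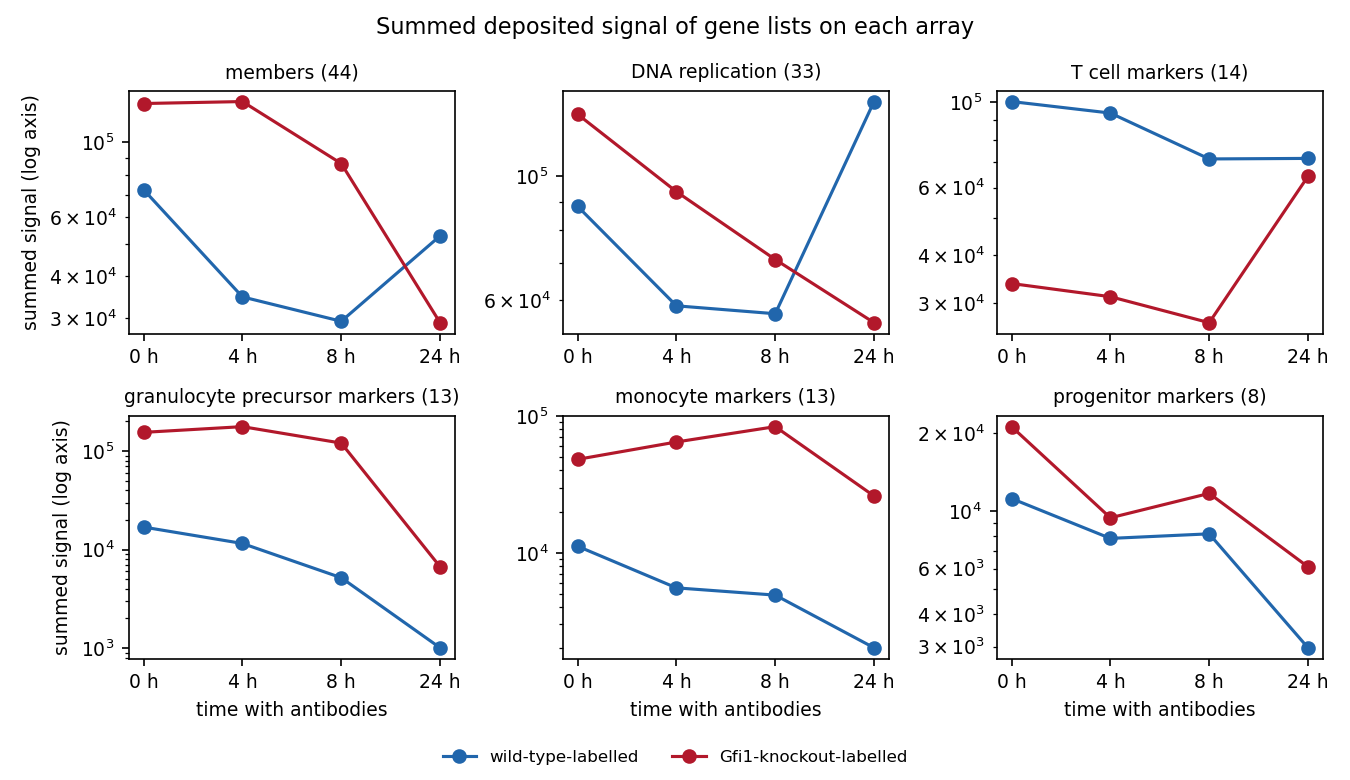
Summed deposited signal of the members, of DNA replication genes and of marker lists on each array (log axis), for wild-type-labelled (blue) and knockout-labelled arrays (red), with the number of genes in parentheses. Members and granulocyte precursor markers are both high on the knockout-labelled arrays to 8 h, and the T cell markers are higher on the wild-type-labelled arrays at every time.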

How the data were processed

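The deposited values are signal intensities of 22690 probe sets, 64 of them controls. The submitters' processing notes name GCOS 1.4 and MAS5, with no role stated. Each array's 2% trimmed mean was 1000.4 to 1000.5. No other columns of per-sample values were present (0).

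Intensities were used as deposited. Values under 141.88, the median over arrays of the 40th percentile, were raised to that floor before log2 was taken. Probe sets above it on at least 2 arrays were tested (15062). Symbols came from the platform annotation, with 1 symbol for 20380 probe sets, several for 691 and none for 1555. Where 1 side lies at the floor, the difference printed is the least it can be. Fold changes between genotypes and within a genotype were judged by size alone, at 2-fold (differences in response at 4-fold), with no p-value.

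Stimulation was tested with limma 3.58.1 (R 4.3.3) on all 15062 probe sets, with time and genotype in the model, a variance trend and Benjamini-Hochberg adjustment. The fit had 3 residual and a median of 3.88 prior degrees of freedom. The number of arrays limits the precision. The steps were tested on simulated data. Values on all arrays are given, in each of 8 role groups, for the member with the highest mean and that with the largest difference in response, and for others where a statement rests on them. Other genes came from the lists, up to 4 per list by mean difference, and from the 10 most alike. The members and lists were chosen with earlier results of these data known.

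Other settings tried were a floor at the 20th or at the 60th percentile, scaling by the array median, quantile normalization, log2 of signal plus the floor, no filter, the median over probe sets, other folds, no variance trend, no genotype block and leaving out each array. A further one, without probe sets ending in _x_at or _s_at, was chosen after seeing the data. Tables were made with python 3.11.15, numpy 2.4.6 and pandas 2.3.3, and figures with matplotlib 3.10.9.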

Additional observations from a re-analysis of the deposited data

Results flagged for a closer look

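For 15 members, by their chosen probe sets, the change from 8 to 24 h went in opposite directions by at least 2-fold on the arrays of each label. It was higher on the wild-type-labelled and lower on the knockout-labelled ones. With 1 array per genotype and time, the difference was not tested. The knockout-labelled change minus the wild-type-labelled change, on the log2 scale, was -4.25 for Bub1, -3.70 for Cdk1, -3.69 for Aurkb, -3.39 for Ccna2 and -3.23 for Birc5. It was -3.14 for Mad2l1, -3.11 for Top2a, -3.10 for Aurka, -2.85 for Nuf2 and -2.84 for Ect2. It was -2.58 for Bub1b, -2.54 for Kif20a, -2.50 for Kif22, -2.46 for Racgap1 and -2.43 for Ndc80. These 15 include kinases, checkpoint proteins, passenger and kinetochore proteins, motors and a topoisomerase, and 46 of 8457 tested genes showed the same order.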

How the results depend on the processing

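Of 364 counts of members recomputed under an alternative, 327 stayed within 1.5 times the value reported and 37 did not. The 327 include every 0 that stayed 0, and many reported counts were 0, all those of limma among them. The share of 327 in 364 therefore does not measure how stable the counts above 0 were. Of 1740 recomputed member differences, 322 moved by 0.25 or more on the log2 scale. A change of sign was counted only where the reported difference was at least 2-fold (4-fold for a response), and 0 were found. Smaller differences were not checked for a change of sign. Members at least 2-fold lower on the knockout-labelled array at 24 h numbered 12 as reported (5.06% of all genes). They numbered 24 under scaling by the array median (10.4% of all genes) and 6 with log2 of signal plus the floor. With a floor at the 60th percentile, which left 42 members tested, the wild-type-labelled counts were 17 lower from 0 to 4 h, 0 lower from 4 to 8 h and 10 higher from 8 to 24 h, and 16 members had a 4-fold lower response. With signal plus the floor, the same steps gave 19, 0 and 13, and 3 members were lower from 4 to 8 h on the knockout-labelled arrays. With the floor at the 20th percentile, 1 member was higher from 0 to 4 h and 1 from 4 to 8 h on the wild-type-labelled arrays. From 0 to 4 h on the knockout-labelled arrays, 1 was higher under quantile normalization and 1 under median scaling. The median over probe sets left 1 member lower from 4 to 8 h on the wild-type-labelled arrays, and it and signal plus the floor each gave 1 member lower at 24 h in limma. Apart from the 12 and the 24 members above, these counts are given without the share of all genes under the same setting. They show only how the number of members depends on the setting.

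A 1.5-fold threshold gave 38 members higher at 0 h, 1 lower at 8 h and 28 lower at 24 h between labels. Within the knockout-labelled arrays it gave 2 higher and 3 lower from 0 to 4 h and 26 lower from 4 to 8 h, and within the wild-type-labelled ones 1 higher at each of these steps and 13 lower from 4 to 8 h. A 3-fold threshold gave 3 higher at 0 h and 0 lower at 24 h between labels, 0 and 21 lower in the last steps of the knockout-labelled arrays, and 8 lower, 0 lower and 9 higher in the steps of the wild-type-labelled arrays. An 8-fold threshold on the response left 12 members. The shares of all genes at these other folds are not given here, so these counts show only how the number of members depends on the fold.

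No replicate pairs the genotypes, and limma without the genotype block called 0 members in each contrast, as with the block. Leaving out 1 array in turn, limma called 0 to 2 members lower at 8 h against 0 h and 0 to 32 at 24 h against 0 h, the 32 without the wild-type-labelled array at 24 h. The median limma change ran from -1.42 to 0.18 at 4 h against 0 h, from -1.58 to -0.60 at 8 h against 0 h, from -2.65 to -0.17 at 24 h against 0 h and from -1.45 to 0.89 from 8 to 24 h. At 4 h against 0 h and from 8 to 24 h it turned positive without the wild-type-labelled array at 4 h (0.18), without the knockout-labelled array at 8 h (0.14) and without that at 24 h (0.89). The cause was not tested. Members near the floor (5 of 44 reached it on at least 1 array) have bounds rather than values.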
